A study of Caenorhabditis elegans with 6 samples.

Results

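Worms grow by moulting: at the end of each larval stage the epidermis secretes a new apical extracellular matrix, the cuticle, and the old one is loosened and shed. A temporary matrix, the precuticle, shapes the new cuticle while it forms, and secreted proteases and their inhibitors have to be balanced for the old cuticle to come off. Transcripts of many moulting genes come and go once in every larval stage. The genes described here act in that process, and their names mostly come from the defects seen when they are lost: mlt genes for failed shedding and bli-5 for blisters of the cuticle.

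The set holds 10 genes (mlt-7, mlt-8, mlt-9, mlt-10, mlt-11, noah-1, noah-2, qua-1, fbn-1 and bli-5) of the 17118 genes with a probe set of their own on the array. They were chosen by name, and every probe set that the platform annotation gives to one of them alone was read, 18 in all. Affymetrix arrays of whole Caenorhabditis elegans were compared, 3 of control worms and 3 of worms given GYY4137, a drug from which hydrogen sulfide is set free slowly. All 6 samples were total RNA of the strain N2 (Bristol), with the age given as larvae (L4). The exposed worms received 100 uM GYY4137 for 48 h in liquid and a further 12 h on plates; a mock exposure of the controls is not described in the sources used here. Each sample came from whole animals, so that fewer cells of a type and less RNA per cell cannot be told apart. Nothing in the labels says that the replicates were separate cultures, and the p-values measure only the spread between these arrays.

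All levels are the authors' log2 values, and every difference is GYY4137 minus control on the log2 scale. A probe set was tested when it exceeded 4 (the floor) on at least 3 of the 6 arrays, which held for 8053 of 22625 probe sets. Of the 18 moulting probe sets 11 passed this filter and 7 did not, so that 8 of the genes have a tested value, and fbn-1 and bli-5 have values with no test. Calls are limma adjusted p under 0.05 over all tested probe sets, and each ± beside a difference is the standard error of that fit. GYY4137 replicate 3 was unlike the rest, with correlations across probe sets of 0.940 to 0.965 against 0.979 to 0.993 among the other 5 arrays; values without it are therefore given too. Of the 8 sperm markers 7 were tested and none was called (limma adjusted p 0.0995 to 0.206). All 7 had a higher mean after GYY4137, where 43.4% of all tested genes did. All 7 also had an unadjusted p under 0.05, where 9.20% of all tested probe sets did in that direction. Their summed linear level was 3490 to 3760 on the control arrays and 4530 to 6270 on the GYY4137 arrays. Their part in the results below was not tested. Tested hypodermis markers, for the tissue that makes the cuticle, divided into 4 higher and 4 lower, with a median of -0.09. Their summed level was 382 to 460 in controls and 377 to 430 after GYY4137. Without GYY4137 replicate 3 the median was -0.16, and elt-3 and vab-10, which were among the higher, stood at -0.13 and -0.06. The summed level on GYY4137 replicates 1 and 2 was 377 to 391. Elt-1 and che-14 lay under the filter. All 10 markers of the adult hypodermis and adult reproduction on the array, yolk and eggshell genes among them, passed the filter. Their control means ran from 6.67 (bli-1) to 12.8 (vit-4), well above the floor. It therefore remains unclear whether the worms were still L4 larvae when collected.

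**Figure D1:**
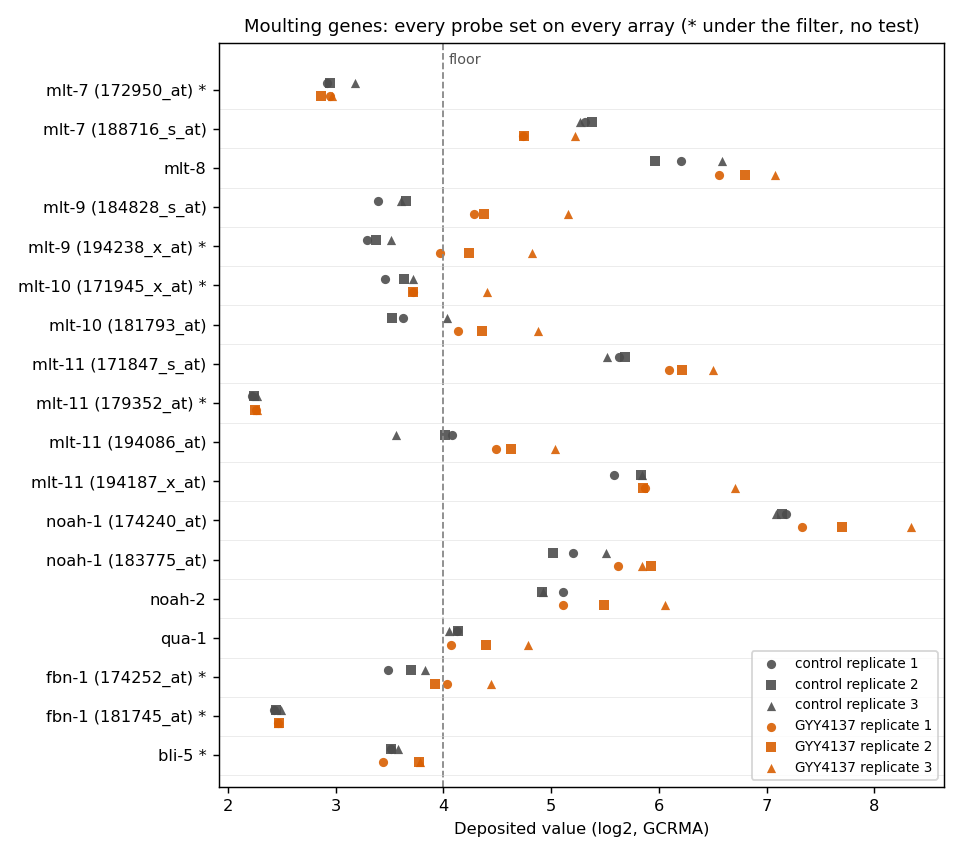
Deposited log2 value (horizontal axis) of each of the 18 moulting probe sets on each of the 6 arrays; grey marks are control arrays, orange marks GYY4137 arrays, marker shapes the replicate numbers, the dashed line the floor of 4, and an asterisk marks the 7 probe sets without a test. GYY4137 arrays lie to the right of all controls for most tested probe sets, with replicate 3 farthest right, and to the left of all controls for mlt-7.

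No moulting probe set passed the test over all 6 arrays: 0 of 11 were called, where 1.50% of all tested probe sets were. One of them, for mlt-9, exceeded the floor only on the GYY4137 arrays, so the filter itself kept it for being high there, and it is left out of the counts that follow. Mlt-10 probe set 181793_at and mlt-11 probe set 194086_at exceeded the floor on 4 and 5 arrays and also needed the GYY4137 arrays to pass. Both remain in each count of higher probe sets below, which the filter favours to that extent, and 194086_at gives the highest difference. Of the 10 tested probe sets other than that of mlt-9, 9 had a higher mean after GYY4137 and 1, for mlt-7, a lower one. Their differences ran from -0.42 to 0.83, with a median of 0.56 against -0.04 over all tested probe sets, and a median of 0.40 without GYY4137 replicate 3. An unadjusted p under 0.05 was reached by 7 of the 10 with a higher mean, against 9.20% of all tested probe sets in that direction, and by 1 with a lower mean, against 8.52%. All GYY4137 arrays lay above all controls for 6 of the 10 (13.4% of all tested probe sets) and below all controls for 1 (15.6%), and 3 overlapped. Several probe sets read the same gene (2 for noah-1 and 3 for mlt-11 among those tested), so these counts are not counts of independent genes. Without GYY4137 replicate 3, 4 of the 11 were called, where 4.73% of all tested probe sets were. These were mlt-7, a pair of mlt-11 probe sets and mlt-9, of which mlt-9 would not have passed the filter on the 5 arrays that remain. With the filter taken on those arrays, an alternative chosen after seeing the data, 3 of 10 were called, where 4.5% of 7973 probe sets were. These were mlt-7 and the same pair of mlt-11 probe sets.

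RNA interference against mlt-9 leaves worms caught in the old cuticle, and its biochemical role is less well described than that of the matrix proteins. On probe set 184828_s_at the controls stood at 3.40, 3.66 and 3.60 and the GYY4137 arrays at 4.28, 4.38 and 5.16. The groups did not overlap, and every GYY4137 array was above the floor while every control was under it. The fitted difference was 1.05 ± 0.23 (limma adjusted p = 0.0841). The probe set was tested only because the 3 GYY4137 arrays exceeded the floor, and the controls give no firm level, so neither the size of the difference nor its p supports a change. Without GYY4137 replicate 3 the difference was 0.78, with only 2 arrays left above the floor. The second probe set, 194238_x_at, passed the floor on only 2 arrays and was not tested; its controls stood at 3.29, 3.38 and 3.51 and its GYY4137 arrays at 3.97, 4.24 and 4.83. It showed the same order of groups, with a mean difference of 0.95. Both can bind related transcripts.

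Mlt-10, whose promoter drives a widely used reporter of the moulting cycle, was read near the floor. The controls stood at 3.62, 3.53 and 4.03 and the GYY4137 arrays at 4.14, 4.36 and 4.88 on probe set 181793_at. The groups did not overlap, although control replicate 3 came close to GYY4137 replicate 1. The difference was 0.73 ± 0.22 (1.66-fold, 95% interval 0.22 to 1.24, limma adjusted p = 0.173), and 0.52 ± 0.16 without GYY4137 replicate 3. The other mlt-10 probe set, 171945_x_at, ran from 3.46 to 3.72 on the controls and read 3.72, 3.72 and 4.40 on the GYY4137 arrays, so that only replicate 3 stood clear of the controls.

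Mlt-8, another gene found by failed shedding, was well above the floor on every array. The controls stood at 6.20, 5.97 and 6.58 and the GYY4137 arrays at 6.56, 6.80 and 7.08. Control replicate 3 reached into the exposed group, by a small margin over GYY4137 replicate 1. The difference was 0.56 ± 0.20 (1.47-fold, limma adjusted p = 0.223) and 0.43 ± 0.17 without GYY4137 replicate 3. In the gene order of assembly WBcel235, mlt-8 and mlt-10 lie on the same chromosome with 4 protein-coding genes between them. The direct neighbours of both genes had no tested probe set of their own.

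Of the protease inhibitors, mlt-11 was read on the most probe sets. It encodes a secreted protein with many Kunitz domains, a fold that blocks serine proteases, and it is needed for shedding and for a normal cuticle. On probe set 171847_s_at the controls stood at 5.63, 5.69 and 5.52 and the GYY4137 arrays at 6.10, 6.22 and 6.50. The groups were clear of each other, and the controls lay close together. The difference was 0.66 ± 0.14 (1.58-fold, 95% interval 0.34 to 0.98), with the smallest limma adjusted p of the set, 0.0705. Without GYY4137 replicate 3 it was 0.54 ± 0.11 and was called (limma adjusted p = 0.0247).

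The other mlt-11 probe sets did not all tell the same story. Probe set 194086_at, which the array's naming gives to 1 gene, read 4.08, 4.01 and 3.56 in controls and 4.49, 4.63 and 5.04 after GYY4137. Again the groups did not overlap; the difference was 0.83 ± 0.20 (1.78-fold, limma adjusted p = 0.0995), and without GYY4137 replicate 3 it was 0.67 ± 0.16 and was called (limma adjusted p = 0.0468). Probe set 194187_x_at, which can bind related transcripts, read 5.58, 5.83 and 5.85 in controls and 5.87, 5.86 and 6.70 after GYY4137. Here GYY4137 replicates 1 and 2 were barely above the controls and replicate 3 carried the difference, which was 0.39 ± 0.24 with that array (limma adjusted p = 0.392) and 0.11 ± 0.12 without it. A further probe set, 179352_at, lay between 2.23 and 2.27 on all arrays, far under the floor, and gives no level for the gene.

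Bli-5, which encodes a small protein of the same Kunitz class and whose loss causes cuticle blisters, was not tested. Its controls stood at 3.52, 3.51 and 3.58 and its GYY4137 arrays at 3.44, 3.77 and 3.78. All values were under the floor and the groups overlapped, so no difference in bli-5 could be read at this signal.

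Noah-1 and noah-2 encode transmembrane proteins of the apical matrix with zona pellucida domains, relatives of the Drosophila protein NompA, which links sensory endings to the cuticle. Noah-1 on probe set 174240_at had control values of 7.18, 7.14 and 7.09 and GYY4137 values of 7.33, 7.70 and 8.35. The controls lay close together, while the GYY4137 arrays, all above them, were spread widely. The difference was 0.65 ± 0.24 (1.57-fold, 95% interval 0.10 to 1.21, limma adjusted p = 0.233), and 0.38 ± 0.13 without GYY4137 replicate 3.

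The second noah-1 probe set, 183775_at, read 5.20, 5.01 and 5.51 in controls and 5.62, 5.93 and 5.84 after GYY4137. It was the tested moulting probe set with a higher mean on which GYY4137 replicate 3 was not the highest array. The difference of 0.55 ± 0.16 (1.47-fold, limma adjusted p = 0.154) became 0.53 ± 0.16 without that array. Noah-2 had control values of 5.11, 4.92 and 4.93 and GYY4137 values of 5.11, 5.49 and 6.05. GYY4137 replicate 1 was level with control replicate 1, so the groups overlapped; the difference was 0.57 ± 0.23 (1.48-fold, limma adjusted p = 0.263), and 0.32 ± 0.14 without GYY4137 replicate 3.

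Fbn-1 encodes a fibrillin-like matrix protein that also keeps the embryonic epidermis in shape under mechanical load. Probe set 174252_at read 3.49, 3.70 and 3.83 in controls and 4.04, 3.92 and 4.44 after GYY4137. The groups did not overlap, but only 2 arrays exceeded the floor, so there is no test and the mean difference of 0.46 is a value near background. The other fbn-1 probe set lay between 2.43 and 2.49 on all 6 arrays.

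Qua-1 is a hedgehog-related gene needed for moulting and growth. Its controls stood at 4.13, 4.13 and 4.06 and its GYY4137 arrays at 4.07, 4.39 and 4.79. GYY4137 replicate 1 lay among the controls and the other exposed arrays were above them. The difference was 0.31 ± 0.18 (1.24-fold, 95% interval -0.11 to 0.74, limma adjusted p = 0.381), and 0.13 ± 0.12 without GYY4137 replicate 3.

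Mlt-7 ran the other way. It encodes a haem peroxidase of the epidermis that acts in cross-linking the cuticle. On probe set 188716_s_at, which can bind related transcripts, the controls stood at 5.31, 5.38 and 5.27 and the GYY4137 arrays at 4.74, 4.74 and 5.23. All GYY4137 arrays were under all controls, and replicate 3 was closest to them. The difference was -0.42 ± 0.15 (95% interval -0.78 to -0.06, limma adjusted p = 0.235). Without GYY4137 replicate 3 it was -0.58 ± 0.10 and was called (limma adjusted p = 0.0153). The other mlt-7 probe set, 172950_at, lay under the floor on all arrays, between 2.86 and 3.18, and was not tested.

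**Figure D2:**
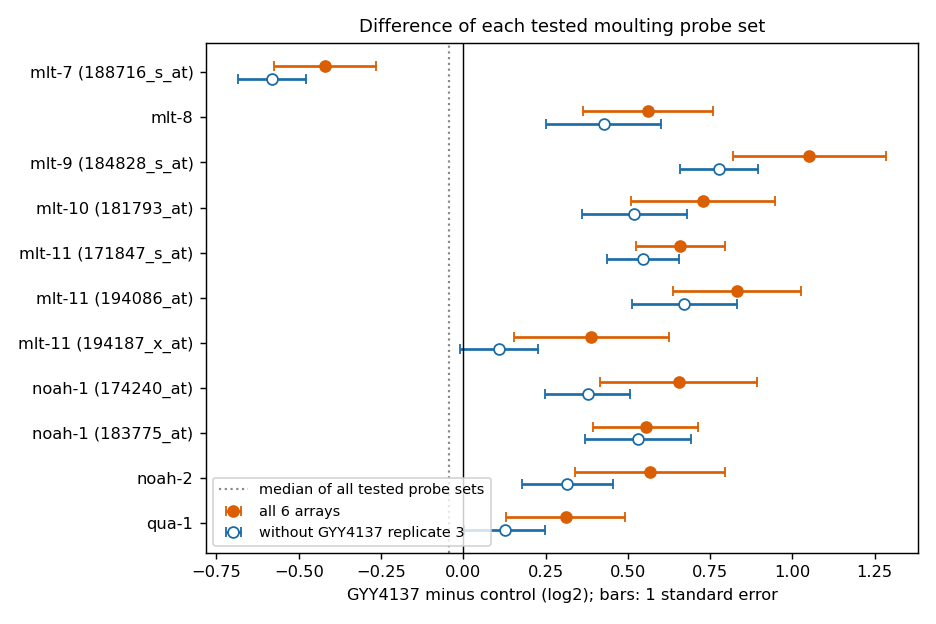
GYY4137 minus control (log2, horizontal axis) for the 11 tested moulting probe sets, with all 6 arrays (filled) and without GYY4137 replicate 3 (open); bars are 1 standard error of the limma fit, and the dotted line is the median over all tested probe sets at -0.04. Mlt-7 lies left of 0 and the others right of it in both fits, and mlt-11 probe set 194187_x_at and qua-1 come closest to 0 without replicate 3.

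The arrays did not fall in a single order for all genes, but 1 array was often the highest. Leaving out mlt-9, GYY4137 replicate 3 was the highest array for 8 of 10 tested probe sets, against 28.4% of all tested probe sets. With mlt-9 counted, it exceeded the other GYY4137 arrays for 10 of 11, mlt-7 included, against 39.4% of all tested probe sets. Its distance above the mean of GYY4137 replicates 1 and 2 had a median of 0.56 over these 11. GYY4137 replicates 1 and 2 were both above all controls for 6 of the 10 probe sets other than that of mlt-9 (17.6% of all tested probe sets) and both below them for mlt-7 (20.6%). Among these 6 are 181793_at and 194086_at, which needed the GYY4137 arrays to pass the filter. Averaged over the 8 tested genes, mlt-9 included, with 1 probe set a gene and each centred on its mean, the arrays stood at -0.28, -0.28 and -0.17 (controls) and -0.08, 0.12 and 0.68 (GYY4137). In this average the brightest probe sets stand for mlt-11 (194187_x_at) and noah-1 (174240_at). On these, GYY4137 replicate 3 lay 0.84 and 0.83 above the mean of replicates 1 and 2. On the other tested probe sets it lay 0.34 and 0.48 above for mlt-11, and 0.07 for noah-1. Among 6213 other genes the closest profiles over the 6 arrays were those of pbs-5, a proteasome subunit gene (Pearson r = 0.998), C52B11.4 (0.997), F44E2.4 (0.994), the major sperm protein gene msp-63 (0.994) and the histone gene his-59 (0.993). These correlations describe 6 arrays of which 1 stands apart, and the closest genes were likewise highest on GYY4137 replicate 3; none of the 5 was called (limma adjusted p 0.261 to 0.371).

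**Figure D3:**
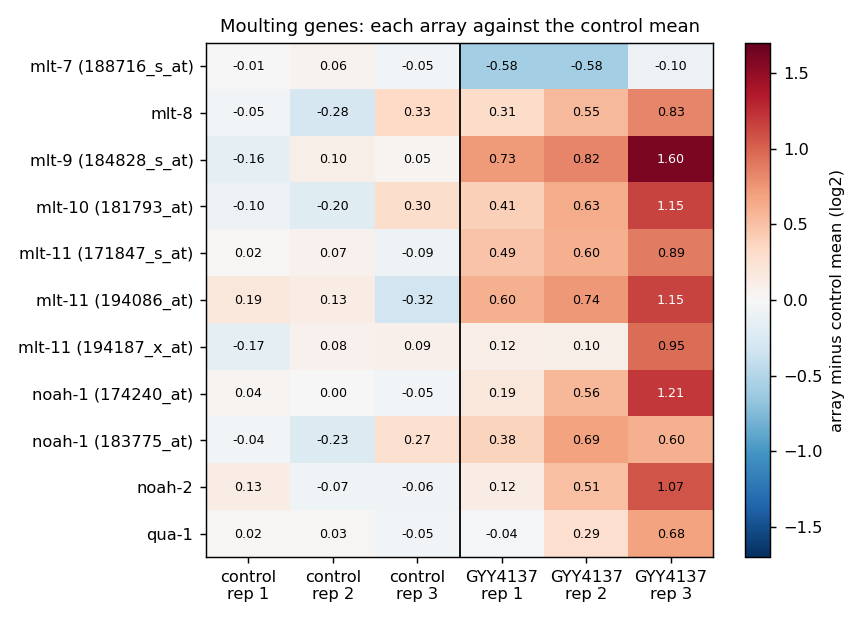
Each array minus the control mean (log2, colour and printed value) for the 11 tested moulting probe sets (rows) on the 6 arrays (columns); the black line divides control from GYY4137 arrays. The GYY4137 columns are red for nearly all rows and darkest for replicate 3, while mlt-7 is blue on GYY4137 replicates 1 and 2.

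The genes that work beside them were read from lists, with 1 probe set a gene. For every list count below at an unadjusted p under 0.05, the shares over all tested probe sets were 9.20% higher and 8.52% lower. The mlt-10 relatives mltn-1 to mltn-13 gave no test: 10 are on the array under a probe set of their own, and all lay under the filter, between 2.18 and 3.99. Of 9 moulting proteases 5 were tested and 0 called (1 higher and 1 lower at an unadjusted p under 0.05), with a median difference of -0.04 (-0.03 without GYY4137 replicate 3). The astacin gene nas-7 had control values of 4.48, 4.44 and 4.50 and GYY4137 values of 3.66, 4.02 and 2.97. All GYY4137 arrays were under all controls, mostly under the floor. The difference was -0.92 ± 0.25 (limma adjusted p = 0.134), and without GYY4137 replicate 3 it was -0.64 ± 0.13 and was called (limma adjusted p = 0.0244). Its controls alone were enough to pass the filter, and the GYY4137 arrays, near or under the floor, give no firm level for the size of this difference. The cathepsin L gene cpl-1 differed by 0.34 ± 0.11 and by 0.32 ± 0.11 without that array. The cathepsin Z gene cpz-1 differed by 0.18 ± 0.14 and by 0.31 ± 0.10 without it. Nas-36, nas-37 and nas-38, astacins that act in shedding, were under the filter.

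Of 12 other protease inhibitors 9 were tested and 0 called (1 higher at an unadjusted p under 0.05), with a median of 0.22, and of 0.11 without GYY4137 replicate 3. The serpin gene srp-6 differed by 0.37 ± 0.16 (0.45 ± 0.15 without that array) and srp-7 by 0.24 ± 0.12 (0.20 ± 0.12 without it). Timp-1, an inhibitor of metalloproteases, differed by 0.25 ± 0.15, and by 0.11 ± 0.11 without it.

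Of 17 other apical matrix genes only 5 were tested, and 0 were called (3 higher at an unadjusted p under 0.05). Their median was 0.68, and 0.45 without GYY4137 replicate 3. It rests on few genes: it was 0.09 with no filter and 0.08 with a floor of 6. Sym-1, a secreted leucine-rich repeat protein that acts in attaching body wall muscle, differed by 0.91 ± 0.22 (limma adjusted p = 0.107), the precuticle lipocalin gene lpr-3 by 0.85 ± 0.22 (adjusted p = 0.120) and the cuticlin gene cut-2 by 0.68 ± 0.20 (adjusted p = 0.173). With that array left out these were at 0.75, 0.61 and 0.45, and lpr-3 was called (adjusted p = 0.0270).

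Of 7 genes for cross-linking and collagen processing 4 were tested and 0 called (1 higher at an unadjusted p under 0.05), with a median of 0.25, and of 0.14 without GYY4137 replicate 3. Dpy-11, a thioredoxin-like gene, differed by 0.29 ± 0.11 (0.22 ± 0.11 without that array) and the prolyl hydroxylase gene phy-2 by 0.20 ± 0.11 (0.26 ± 0.11 without it). Pdi-2, a protein disulfide isomerase gene, differed by 0.22 ± 0.16, and by 0.06 ± 0.11 without it. The dual oxidase gene bli-3, which supplies peroxide for cross-linking, was under the filter.

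Of 20 moulting regulators and endocytosis genes 9 were tested and 0 called (2 higher and 1 lower at an unadjusted p under 0.05), with a median of 0.12, and of 0.08 without GYY4137 replicate 3. Nhr-23, the nuclear receptor that many moulting genes depend on, had control values of 5.27, 5.72 and 5.63 and GYY4137 values of 4.94, 4.89 and 4.37. All GYY4137 arrays were under all controls; the difference was -0.81 ± 0.19 (limma adjusted p = 0.104), and without GYY4137 replicate 3 it was -0.63 ± 0.14 and was called (adjusted p = 0.0397). Acn-1, an ACE-like gene needed for moulting, differed by 0.80 ± 0.27, and by 0.51 ± 0.16 without that array. Nekl-3, a kinase gene of the endocytic step of moulting, differed by 0.45 ± 0.18 (0.28 ± 0.14 without it), and lin-42, the worm relative of period, by 0.20 ± 0.14 (0.12 ± 0.13 without it).

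Calls over all 6 arrays came from the hedgehog-related and collagen lists. Of 25 hedgehog-related genes, the class of qua-1, 13 were tested, 1 rose and 0 fell. Their median was 0.40, and 0.21 without GYY4137 replicate 3. With no filter it was 0.22, and with a floor of 6 it was 0.16. An unadjusted p under 0.05 was reached by 6 higher and 2 lower, against 9.20% and 8.52% of all tested probe sets. Grl-7, of the ground-like class, rose from 5.44, 5.60 and 5.70 in controls to 6.31, 6.52 and 6.95 after GYY4137, by 1.01 ± 0.18 (limma adjusted p = 0.0461). Grl-15 differed by 0.97 ± 0.22 and grl-21 by -0.93 ± 0.23 (adjusted p = 0.0857 and 0.114), so members of the class lay on both sides. Without GYY4137 replicate 3 grl-15 and grl-21 were at 0.76 and -1.18 and both were called (adjusted p = 0.0262 and 0.00164), as was grl-4 at -0.76. Of 16 furrow and shape collagens 15 were tested, 1 rose and 0 fell. Their median was 0.54, and 0.41 without GYY4137 replicate 3, with 8 higher and 1 lower at an unadjusted p under 0.05. Dpy-8, a collagen of the annular furrows, rose from 5.24, 4.74 and 4.78 to 5.87, 5.84 and 6.15, by 1.03 ± 0.17 (adjusted p = 0.0374). The shape collagens sqt-1 and dpy-5 differed by 0.91 ± 0.20 and 0.54 ± 0.13, and dpy-17 by -0.43 ± 0.12. In the fit without that array sqt-1 was at 0.73 and was called (adjusted p = 0.0304), as were dpy-3 and dpy-9 at 0.57 each, while dpy-5 and dpy-17, at 0.44 and -0.44, were not. The probe sets of grl-7 and dpy-8 may also catch transcripts of relatives. Grl-7 and dpy-8 were called without GYY4137 replicate 3, but neither was called without any 1 control array or without GYY4137 replicate 2, and dpy-8 also not without GYY4137 replicate 1.

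**Figure D4:**
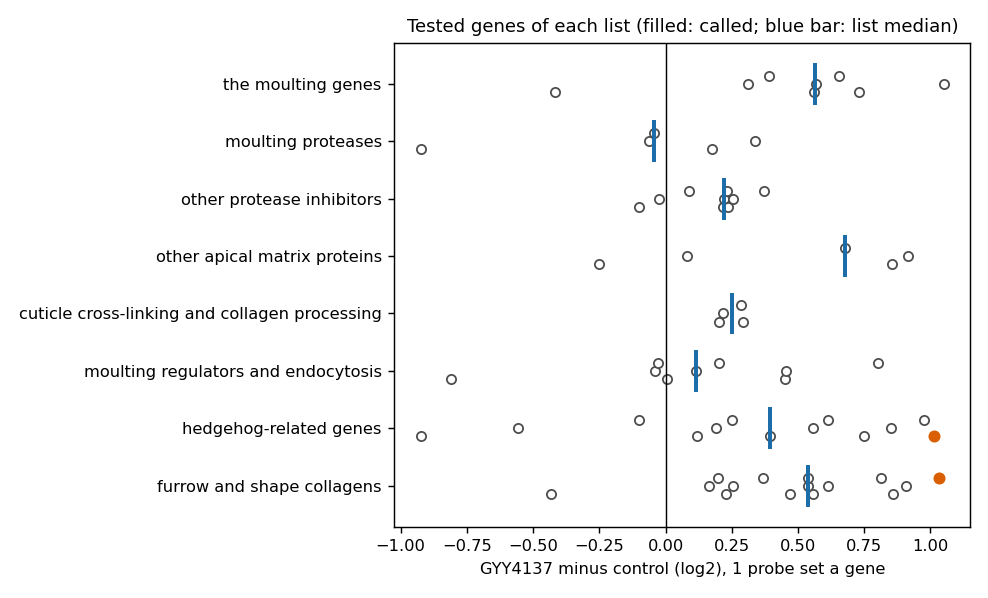
GYY4137 minus control (log2, horizontal axis) for each tested gene, with 1 probe set a gene, of the moulting genes and of 7 related lists; filled points passed the test, open points did not, and the blue bar is the list median. Only grl-7 and dpy-8 are filled, and the medians of the moulting genes (mlt-9 included) and of the furrow and shape collagens stand at 0.56 and 0.54.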

How the data were processed

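RNA of 6 samples was measured on 1-colour Affymetrix arrays. The authors deposited 1 value per probe set and array, made with GCRMA, per the submitters' processing notes; its version is not stated there. The deposited values are read as log2, since they run from 1.88 to 13.3. No further normalization was applied, and the 77 Affymetrix control probe sets were left out. Groups came from the sample titles. Probe sets were named by the platform annotation, with symbols brought up to date through a table of RefSeq genes (assembly WBcel235): 20766 probe sets list 1 gene, 887 several and 972 none, and 20701 of the first kind matched. A gene was named only from a probe set that lists it alone, and each list gene was read on its brightest tested probe set, by the mean of all 6 arrays.

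GYY4137 minus control was fitted over all 8053 tested probe sets in R 4.3.3 by lmFit and eBayes of limma 3.58.1 (two-sided, Benjamini-Hochberg adjustment). The procedure was tested on simulated data with equal noise in all probe sets, set from the arrays other than GYY4137 replicate 3. That test therefore does not cover an array that stands apart. The members and lists were chosen with earlier results of these data known, so no p over a list alone and no set test is given. Named genes were all 10 members, the called genes and the 3 with the smallest p of each related list, and the 5 closest profiles; lin-42, dpy-3, dpy-9, dpy-17, grl-4 and the genes named as under the filter were added after their values were seen. The alternatives were leaving out each array (GYY4137 replicate 3 also with the filter taken again, a choice made after seeing the data), a block for the replicate number, weights for the arrays, an intensity trend, quantile normalization or median centring, a floor of 6 or none, and averaging the probe sets of a gene. With 6 arrays, their number limits the precision. No sequence is shown, since none was used here.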

Additional observations from a re-analysis of the deposited data

How the results depend on the processing

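The member count, the member median, each tested member probe set, the related-list count and the count over all tested probe sets were recomputed. No member probe set changed direction under any alternative. The member median, with mlt-9 included wherever it was tested, ran from 0.40 to 0.75. A floor of 6 left only 3 member probe sets, so its count and median cover few of them. The count of called member probe sets was 0 except without GYY4137 replicate 3 and with array weights. Without that array it was 4 of 11, beside 4.73% of all tested probe sets, so 0 to 4 over the leave-outs. With the filter taken on the remaining arrays, a setting chosen after seeing the data, it was 3 of 10. In that setting 359 of 7973 probe sets (4.5%) and 11 related genes were called. With array weights the count was 9 of 11 (8 higher, mlt-9 included, and mlt-7 lower), beside 17.2% of all tested probe sets. These weights gave GYY4137 replicate 3 a weight of 0.143. In that fit mlt-9, mlt-10 and mlt-8 differed by 0.89, 0.66 and 0.55. The count over all tested probe sets was 121, and 12, 21 or 19 without control replicate 1, 2 or 3, and 63, 27 or 381 without GYY4137 replicate 1, 2 or 3. Array weights gave 1389 calls, dropping the filter gave 33 and raising the floor to 6 gave 80. Called genes of the related lists numbered 2, and 28 under array weights, 0 when the filter was dropped, 1 when the floor was raised and 0 to 11 over the leave-outs. The cause of these moves was not tested. With the replicate number as a block, 73 probe sets were called, 0 of them members, and grl-7 and sqt-1 were the called related genes. The deviations of same-numbered arrays from their group means correlated at 0.108, -0.016 and 0.051. With 3 arrays a group, and GYY4137 replicate 3 standing apart, these values cannot tell whether the numbers pair the samples. Signal limits the values of bli-5 and fbn-1 and the 7 untested probe sets: with no filter, none of the 18 member probe sets was called, where 0.146% of 22548 were, and 9 of them had an unadjusted p under 0.05, where 9.89% of all did.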

Other observations

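The remaining marker lists are given as values, since the arrays hold whole animals. Of all tested genes 43.4% had a higher mean after GYY4137. Germline and oocyte markers were lower after GYY4137 for 8 of 8 tested genes, with a median of -0.21 (-0.17 without GYY4137 replicate 3) and 0 called. Their summed linear level was 3140 to 3370 in controls, 2560 to 2830 after GYY4137 and 2830 on GYY4137 replicates 1 and 2. Body wall muscle markers were lower for 5 of 6 (median -0.30, and -0.38 without that array). Pharynx markers were lower for 4 of 4 (median -0.16, and -0.18 without it). Intestine and neuron markers had medians of 0.04 and 0.05 over 6 tested genes each, and markers of the adult hypodermis and of adult reproduction a median of -0.07 over 10. None of these lists held a called gene by limma. Lower at an unadjusted p under 0.05 were 3 germline and oocyte, 3 muscle and 2 adult markers, against 8.52% of all tested probe sets. Higher at that p were 1 intestine and 2 neuron markers, against 9.20% of all tested probe sets.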
